A study of Mus musculus with 18 samples.

Results

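Expression of the collagen genes was measured in laser-captured areas of the mouse thyroid, in normal glands and in glands after partial thyroidectomy. The 40 members are the genes that the array design names Col, a number, a, and a number. They are carried by 78 of the 41174 gene probes on each array, and 1 probe, that of highest mean intensity, stood for each gene. By the molecule they build, or by tissue for the cartilage types, 8 of the 40 were grouped as fibrillar, 8 as basement membrane and 7 as cartilage collagens. Each gene is in 1 class only, so cartilage collagens that form or join fibrils, such as Col2a1, are not counted as fibrillar or FACIT. The other 17 were 5 microfibril and network, 6 fibril-associated (FACIT) and 4 transmembrane collagens, and Col7a1 and Col28a1.

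Collagens are the structural proteins of the extracellular matrix. Each molecule winds chains with a regular Gly-X-Y repeat into a triple helix. Fibrillar collagens form the tensile fibres of connective tissue, type IV collagen forms the sheet-like network of basement membranes, and cartilage has a set of its own led by type II. In the thyroid, each follicle of hormone-producing thyrocytes rests on a basement membrane, C cells that make calcitonin lie inside that membrane, and fibroblasts and capillaries lie between follicles.

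All tissue came from male C57BL/6 mice, and the groups were normal central (5 arrays), normal peripheral (3), dissected central (5) and dissected peripheral (5) areas of the lobe, dissected being the word of the labels for glands after the operation. The series title concerns proliferation of thyroid cells following that operation, and a comparison among all 4 groups is stated in its design text. The time after surgery, the age of the mice and the animal behind each area are not given in the sources used here, so areas may share an animal. The p-values rest on how far captured areas differ. They may be too small where areas of a group share an animal, and too large where compared areas do. Values are log2 ratios of tissue (Cy5) over reference (Cy3) unless stated otherwise, with SD and n, and fewer cells of a type cannot be told apart from less RNA per cell.

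The share of gene probes with a Cy5 signal well above background ran from 24.7% to 44% per array, and 4 arrays (normal peripheral 1, dissected central 1 and 2 and dissected peripheral 1) lay under 30%. Thyroglobulin (Tg), which defines thyrocytes, was well above background on all 18 arrays. Slc5a5, the iodide transporter, and Foxe1, a thyrocyte transcription factor, were well above background on 0. Each group always had the same position on the 5 slides, so position and group cannot be told apart. The reference channel went against its label. It is labelled as RNA of 10 tissues of Swiss Webster mice without thyroid, but the median Cy3 intensity was 79154 for Tg and 204897 for the calcitonin gene Calca. In contrast, the Cy3 medians of albumin (Alb), uromodulin (Umod) and alpha-fetoprotein (Afp), genes of the labelled tissues liver, kidney and embryo, were 120, 101 and 99. Of 16 genes of labelled tissues, picked after the values were seen, 8 were not well above background in Cy3 on any array, 6 were on some and 2 on all 18. Medians of both channels correlated at r = 0.993 across the 41174 gene probes, which are not independent replicates. A difference between groups is therefore read from the change of the ratio, and values from Cy5 alone stand beside those that a result turns on.

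Of the 40 collagens, 31 passed the filter, a Cy5 signal well above background on at least 3 arrays, and 17 of them were above it on all 18. The other 9, which have no tested value, were Col4a3, Col5a2, Col9a1, Col9a3, Col10a1, Col12a1, Col19a1, Col25a1 and Col28a1, each above background on 0 or 1 arrays. Whether a probe was detected moved with its place in the gene. The 3 probes below are shown because their own letters mark them as coming from the triple helix, far inside the message. Capitals mark codons of the form GGN, which encode glycine, and in these probes such a codon recurs every 3 codons without a break. Of all 41174 gene probes only these 3 held an unbroken repeat, and all were collagen probes. They are written 5′ to 3′ as in the scanner files, with positions on mm7, and each spans more genome than its 60 bases, 2424 bases for Col5a1, 730 for Col5a3 and 167 for Col11a2.
Col5a1, chr2:27994034-27996457, plus strand: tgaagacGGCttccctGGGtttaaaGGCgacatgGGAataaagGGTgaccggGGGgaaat
Col5a3, chr9:20655471-20656200, minus strand: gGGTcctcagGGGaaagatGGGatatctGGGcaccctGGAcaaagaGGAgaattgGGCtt
Col11a2, chr17:32131401-32131567, plus strand: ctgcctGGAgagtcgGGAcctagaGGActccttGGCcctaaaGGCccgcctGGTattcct

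The Col5a1 repeat probe, 48285 bases upstream of the last Col5a1 probe, was well above background on 12 arrays, and the last probe on all 18. The Col5a3 and Col11a2 repeat probes were above background on 0 arrays, whereas the last probes of those genes were on 18 and 11. The same held for the main fibrillar genes, since the Col1a1 probe that stood for the gene was above background on 18 arrays and those 1023 and 13798 bases further upstream on 0. Of the 28 collagens with over 1 probe, 17 had some but not all probes past the filter, and in 13 of the 17 the most 3′ probe was among those that passed. In all, 21 of 28 most 3′ probes passed, as did 14 of 38 probes further upstream. The 4 of the 17 whose most 3′ probe did not pass were Col15a1, Col23a1, Col24a1 and Col27a1. The part of the amplification, the array design and the transcript ends in this was not tested, and a collagen without a detected probe cannot be read as absent from the tissue.

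**Figure D1:**
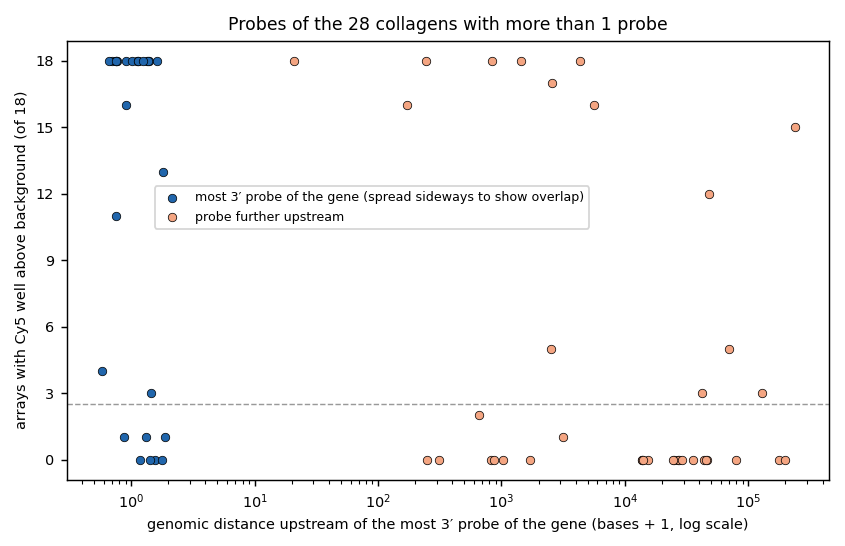
Each point is a probe of 1 of the 28 collagens with over 1 probe, placed by its genomic distance upstream of the most 3′ probe of the gene (mm7, log scale) and by the number of arrays, of 18, on which its Cy5 signal was well above background. Of the most 3′ probes, 21 of 28 lie above the dashed line of the filter, against 14 of 38 of those further upstream.

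No collagen passed an adjusted p of 0.05 (limma, Benjamini-Hochberg over 14663 genes) in any comparison. Dissected minus normal gave 0 of 31 in the central and in the peripheral area, where the share of all genes called was 0% in each. Central minus peripheral gave 0 of 31 in normal glands, where 0.28% of all genes passed, and 0 of 31 in dissected glands, where 0.587% passed. The test of whether the change after dissection differed between areas gave 0 of 31 (background 0%), and the F test among the 4 groups 0 of 31 (background 1.06%). At an unadjusted limma p under 0.05, dissected minus normal held 1 of 31 collagens (3.23%) in the central area, against 5.24% of all genes. It held 3 (9.68%) in the peripheral area, against 8.35%. Central minus peripheral held 3 (9.68%) in normal glands, against 8.59%, and 2 (6.45%) in dissected glands, against 7.43%. The difference between areas in the change held 0, against 5.82%, and the F test 5 (16.1%), against 8.93%. These 5 were Col4a1, Col5a3, Col7a1, Col8a1 and Col22a1. Groups that did not overlap were found for 0 of 31 collagens in dissected minus normal, where 1% of all genes did not overlap in the central and 4.21% in the peripheral area. Between areas they were found for 2 of 31 (6.45%), Col7a1 and Col16a1, in normal glands, against 4.86% of all genes, and for 0 in dissected glands, against 1.67%. Read against all genes, the counts for the pairwise comparisons lay near the background.

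**Figure D2:**
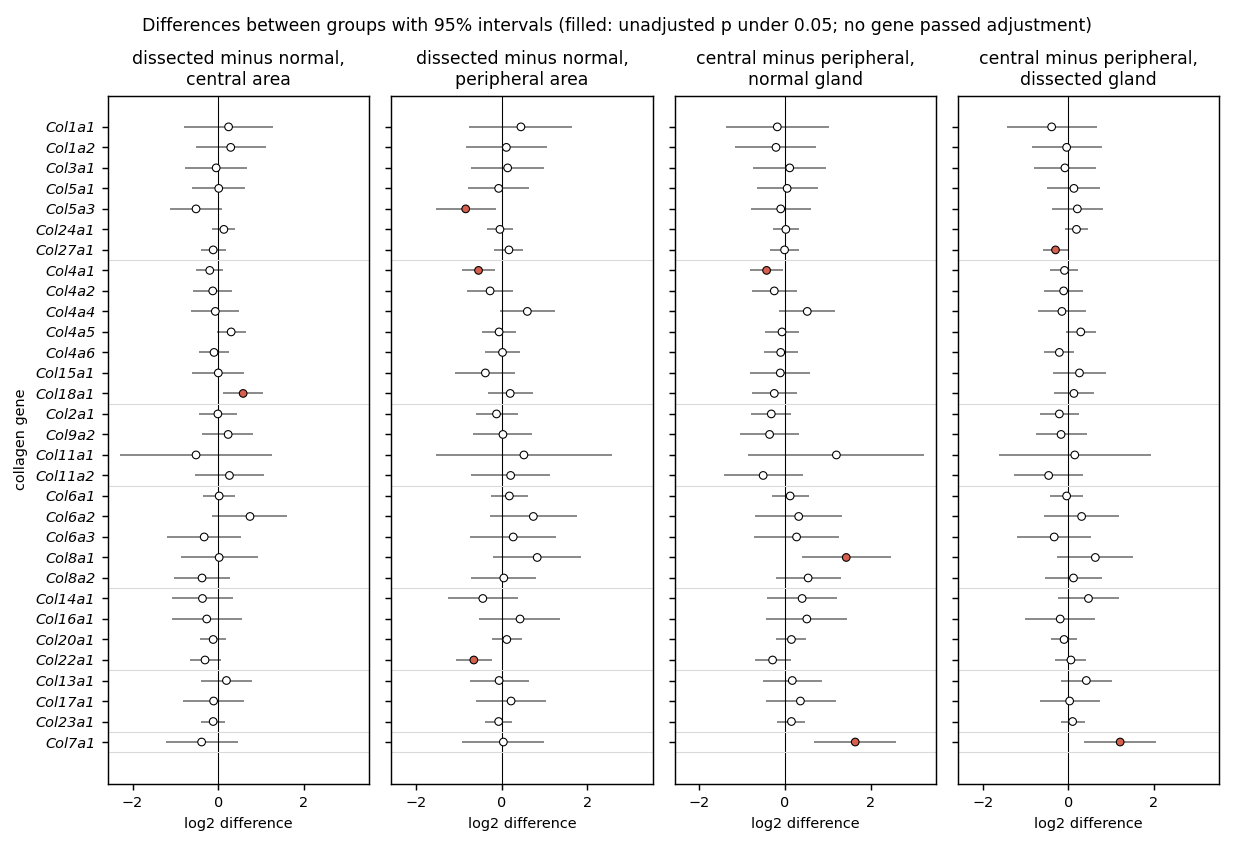
Fitted log2 differences of the 31 tested collagens with 95% intervals from limma in the 4 pairwise comparisons, ordered by class (from the top: fibrillar, basement membrane, cartilage, microfibril and network, FACIT, transmembrane, Col7a1). Filled points have an unadjusted p under 0.05, and the 2 furthest from 0, both for central minus peripheral in normal glands, are Col7a1 at 1.64 and Col8a1 at 1.43.

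For all 7 fibrillar collagens tested, the SD within groups was larger than the SD among group means. Means of 3 to 5 arrays spread less than single arrays even where groups are alike. These SDs thus describe the spread and cannot show that groups do not differ. Col1a1 and Col1a2, the chains of type I collagen, and Col3a1, the chain of type III that lies beside it in soft tissue, were above background on all 18 arrays. For Col1a1 (probe at chr11:95060800-95060859 on mm7) the ratios were -1.31, -0.30, -0.09, -0.80 and -0.06 in normal central and -0.19, 0.03 and -0.85 in normal peripheral areas. After dissection they were 0.53, -0.53, -0.08, -0.17 and -1.13 in central and 1.81, -0.28, -1.51, 1.19 and -0.65 in peripheral areas. The dissected peripheral group thus held both the highest and the lowest Col1a1 value of all arrays, and all groups overlapped. Dissected minus normal Col1a1 was 0.24 (95% interval -0.81 to 1.28) in the central and 0.45 (-0.76 to 1.65) in the peripheral area. Both intervals include no change and a doubling, and neither reaches a halving.

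Col1a2 (chr6:4493505-4493564) had ratios of -1.36, 0.01, 0.30, -0.83 and -0.09 in normal central and 0.00, 0.17 and -0.71 in normal peripheral areas. Its dissected values were 0.56, -0.22, -0.02, -0.45 and -0.40 in central and 1.16, -0.49, -1.25, 0.51 and -0.27 in peripheral areas. The same arrays stood at the ends as for Col1a1, dissected peripheral 1 at the top and normal central 1 and dissected peripheral 3 at the bottom. Col3a1 (chr1:45585395-45585454) had ratios of -0.88, -0.02, 0.47, -0.76 and -0.40 in normal central, -0.73, 0.16 and -0.70 in normal peripheral, 0.14, -0.10, -0.27, -0.14 and -1.44 in dissected central and -0.13, -0.03, -1.28, 0.50 and -0.48 in dissected peripheral areas. Dissected central 5 was its lowest array. Group means of Col3a1 were -0.32 ± 0.55 (SD, n = 5), -0.42 ± 0.51 (n = 3), -0.36 ± 0.62 (n = 5) and -0.28 ± 0.66 (n = 5) in that order. The SD among group means of Col3a1 was 0.06, against 0.60 within groups, and that of Col1a1 was 0.26, against 0.87. For Col5a3 the same SDs were 0.41 and 0.49.

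Col5a3, a chain of type V collagen, which is a minor partner in type I fibrils, was the fibrillar gene with the largest unadjusted difference. Its ratios (chr9:20639940-20639999) were -0.10, 0.73, 0.36, -0.29 and 0.32 in normal central and -0.09, 1.12 and -0.10 in normal peripheral areas. In dissected glands they were -0.51, 0.08, -0.27, 0.16 and -1.06 in central and -0.27, -0.90, -1.06, -0.41 and -0.04 in peripheral areas. All 5 dissected peripheral values were below 0, but normal and dissected groups overlapped. Dissected minus normal was -0.84 (SE 0.33, limma adjusted p = 0.566) in the peripheral and -0.52 (SE 0.29, adjusted p = 0.988) in the central area. From Cy5 alone the peripheral difference was -0.69, and without normal peripheral 2 it was -0.44. Col27a1, a fibrillar gene known from cartilage, was above background on only 3 arrays, 1 normal central and 2 dissected peripheral. Its ratios (chr4:62726270-62726329) were -0.14, -0.06, 0.14, 0.11 and 0.43 in normal central, 0.02, 0.29 and 0.00 in normal peripheral, -0.14, -0.10, -0.08, 0.04 and 0.16 in dissected central and 0.64, 0.08, 0.09, 0.44 and 0.12 in dissected peripheral areas. It was not well above background in any dissected central area and in only 2 of 5 dissected peripheral ones. Its central minus peripheral difference in dissected glands, -0.30 (SE 0.14, limma adjusted p = 0.658), therefore rests largely on background values. Over the 7 tested fibrillar genes of 8 the median difference was 0.01 for dissected minus normal in the central and 0.11 in the peripheral area. It was -0.01 for central minus peripheral in normal and -0.04 in dissected glands, and 0.08 for the difference between areas in the change. The same medians over all genes tested were -0.01, 0.01, 0.01, 0.00 and -0.02.

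**Figure D3:**
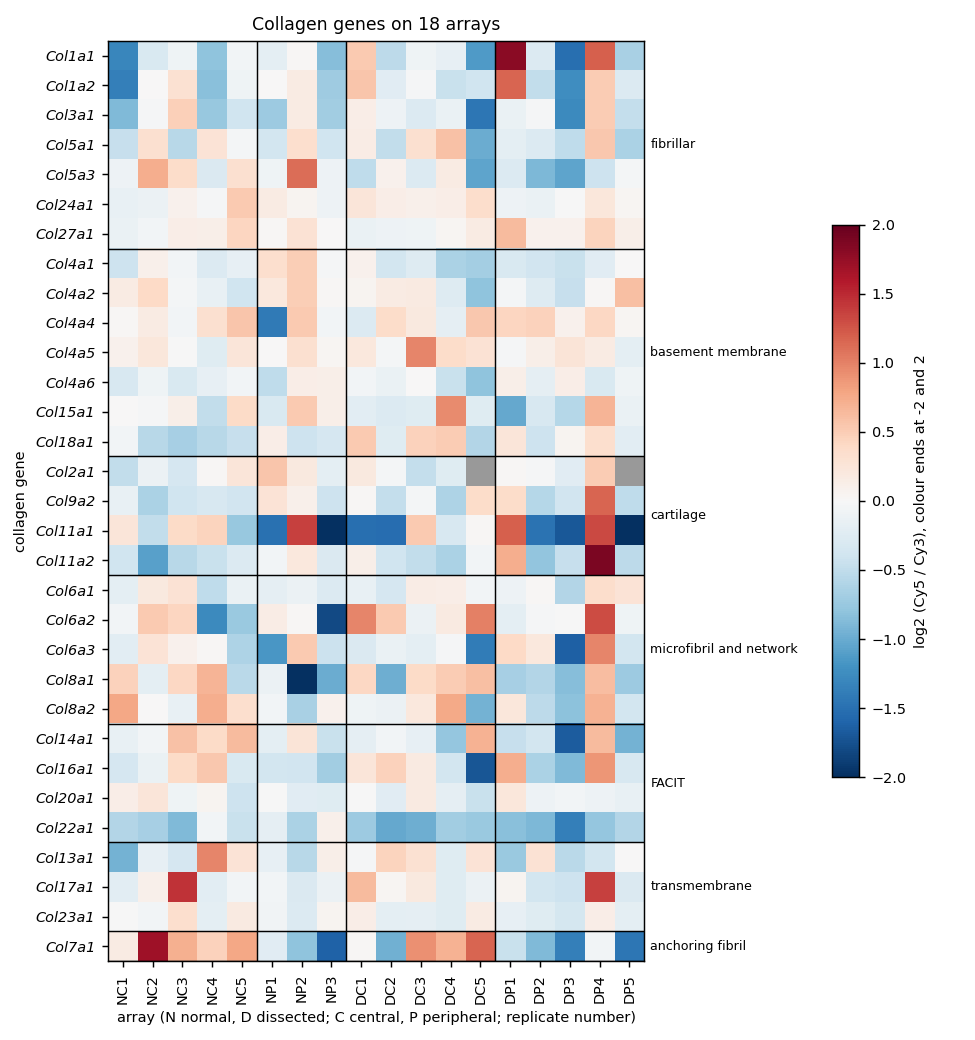
Log2 ratios of the 31 tested collagens (rows, by class) on the 18 arrays (columns, by group), with colour ending at -2 and 2 and grey for the 2 Col2a1 values left out as non-uniform spots. The median of the fibrillar rows is lowest on dissected peripheral 3 (-1.06) and highest on dissected peripheral 4 (0.50), while single genes differ in their lowest array.

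Of 4 pairs of chains that share a molecule or a fibril, 3 moved together across arrays, and Col6a1 with Col6a2 did not pass the test. After subtraction of each group mean, Col1a1 and Col1a2 correlated at r = 0.92 (rho = 0.90) over 18 arrays, Col1a1 and Col3a1 at r = 0.73 (rho = 0.73), and Col4a1 and Col4a2, the main chains of basement membrane type IV, at r = 0.69 (rho = 0.76). The two-sided permutation p (100000 resamples) was 1e-05 for the first pair, the smallest they can give, and 4e-05 adjusted over the 4 pairs. For the other two pairs the permutation p was 0.00058 and 0.00154, adjusted 0.00116 and 0.00205, and by Spearman the adjusted permutation p of the 3 pairs was 8e-05, 0.00109 and 0.00109. Without the 2 arrays farthest from the median on the x axis, r was 0.86, 0.78 and 0.68 over 16 arrays. Col6a1 and Col6a2, chains of the type VI microfibrils, had r = 0.45 (rho = 0.39) with a permutation p of 0.0611 for each of the raw and the adjusted value (0.112 by Spearman), and 0.35 without the 2 farthest arrays. With arrays permuted only within their group, an alternative added after the data were seen, the adjusted permutation p was 4e-05, 0.00296, 0.00635 and 0.0686 in that order. On scan day 2 (11 arrays, of which 7 values are free after the group means are removed) r was 0.94, 0.56, 0.68 and 0.65. By exact permutation within groups, the adjusted p there was 0.0556, 0.144, 0.146 and 0.146, so none of the pairs passed on that day alone. On scan day 1 the 6 arrays of groups with over 1 array leave 3 free values, too few for a correlation. A slide holds too few arrays for a value of its own. The pairs Col5a1 with Col5a2, Col9a1 with Col9a3 and Col2a1 with Col9a1 could not be tested, as Col5a2, Col9a1 and Col9a3 did not pass the filter. Arrays share the amplification, hybridisation and reference of both chains, so a common technical shift and a common change in the tissue cannot be told apart here.

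**Figure D4:**
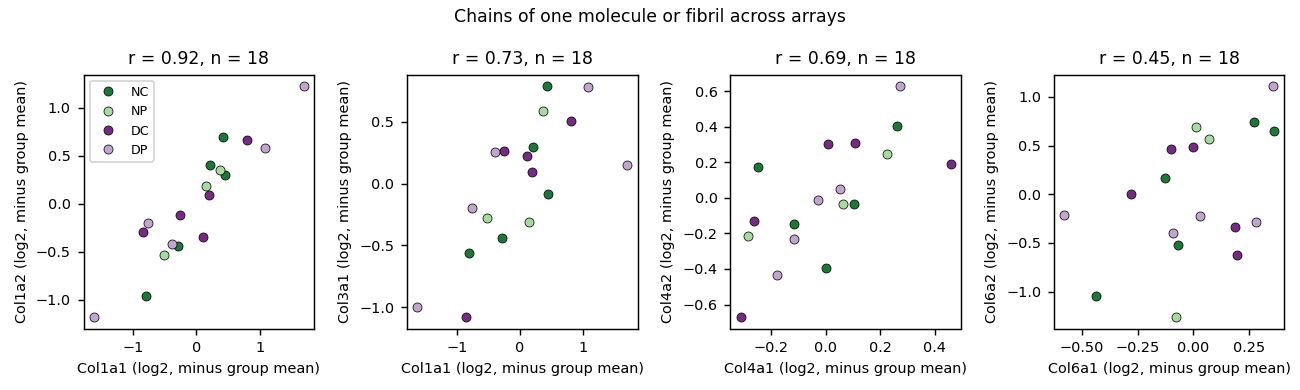
Log2 ratios of 4 pairs of collagen chains on 18 arrays after subtraction of each group mean, with 1 point an array and colour for the group (N normal, D dissected, C central, P peripheral). Points of all groups lie along a rising line for Col1a1 with Col1a2 (r = 0.92) and scatter widely for Col6a1 with Col6a2 (r = 0.45).

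Fibroblast markers were read on the same arrays. Col1a1 was highest on dissected peripheral 1 and 4 (1.81 and 1.19). It was lowest on dissected peripheral 3 and normal central 1 (-1.51 and -1.31). On these arrays the mean log2 ratio of the 6 markers was -0.66, -0.21, -0.98 and -0.20. In array order that mean was -0.20, 0.19, 0.55, -0.10 and 0.29 in normal central and -0.23, -0.14 and -0.30 in normal peripheral areas. It was 0.09, -0.21, 0.34, 0.11 and 0.09 in dissected central and -0.66, -0.34, -0.98, -0.21 and -0.37 in dissected peripheral areas. Decorin (Dcn), lumican (Lum), Thy1 and Pi16 were above background on all 18 arrays, Pdgfra on 15 and Dpt on 1. Thy1, which neurons express as well, was called higher in central than in peripheral areas in both states. It therefore lowers the mean of the list in peripheral areas relative to central ones. Over the 4 groups the mean of the list ran from -0.20 to 0.55 in normal central, from -0.30 to -0.14 in normal peripheral, from -0.21 to 0.34 in dissected central and from -0.98 to -0.21 in dissected peripheral areas. Its part in the collagen values was not tested.

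Fitted differences between groups were under a doubling for each of the 7 basement membrane collagens tested, all arrays included. Col4a1 and Col4a2 lie head to head on chromosome 8, on opposite strands. Their promoters are shown because the pair moved together, as 300 bases each from RefSeq (GRCm38.p6), 5′ to 3′ on the strand of the gene, with capitals for the 78 bases that both windows hold. Whether the shared stretch has a part in the correlation of the pair was not tested. A promoter was found there for 32 of the 40 collagens.
Col4a1, chr8:11312777-11313076, minus strand: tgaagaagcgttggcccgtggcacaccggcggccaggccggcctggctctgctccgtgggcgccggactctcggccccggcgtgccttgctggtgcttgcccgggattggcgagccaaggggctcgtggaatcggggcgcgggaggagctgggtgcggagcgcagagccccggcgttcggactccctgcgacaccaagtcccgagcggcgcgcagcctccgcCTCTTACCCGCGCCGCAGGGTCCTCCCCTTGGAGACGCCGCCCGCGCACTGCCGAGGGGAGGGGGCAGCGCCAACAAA
Col4a2, chr8:11312555-11312854, plus strand: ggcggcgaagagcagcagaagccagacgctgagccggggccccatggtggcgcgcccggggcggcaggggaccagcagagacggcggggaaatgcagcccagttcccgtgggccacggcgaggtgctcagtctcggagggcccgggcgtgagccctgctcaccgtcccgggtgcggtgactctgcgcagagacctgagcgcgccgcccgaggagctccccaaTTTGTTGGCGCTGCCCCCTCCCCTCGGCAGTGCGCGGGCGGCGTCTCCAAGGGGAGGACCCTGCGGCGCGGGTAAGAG

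The annotated starts of both genes lie 21 bases apart inside the shared stretch, each downstream of the other. The annotated genes thus overlap there, and most of each window lies inside the other gene. Motif and base counts therefore include transcribed bases. On either strand the motif GGGCGG occurred 1 time in the Col4a1 and 3 times in the Col4a2 window, 1 of them in the shared stretch, and 35.7% of 32851 promoters held it. CCAAT occurred 1 time in each window and not wholly inside the shared stretch, that of Col4a2 running into its first base, and 37.4% of promoters held it. G and C made up 74% of the Col4a1 and 73.7% of the Col4a2 window, against a median of 52.7% over all promoters.

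For Col4a1 (probe at chr8:11167020-11167079 on mm7) the ratios were -0.41, 0.10, -0.06, -0.28 and -0.16 in normal central and 0.33, 0.49 and -0.02 in normal peripheral areas. They were 0.09, -0.36, -0.26, -0.63 and -0.68 in dissected central and -0.30, -0.39, -0.45, -0.22 and 0.00 in dissected peripheral areas. The normal peripheral group was the highest, with 2 of its 3 values above all others, and it overlapped the rest by its lowest array. Dissected minus normal in the peripheral area was -0.54 (SE 0.18, limma adjusted p = 0.521), and central minus peripheral in normal glands was -0.43 (SE 0.18, adjusted p = 0.506). Both comparisons share the 3 normal peripheral arrays. Cy5 alone gave -0.75 and -0.60. A second Col4a1 probe, 837 bases upstream and above background on all 18 arrays, gave -0.20 and -0.11. On scan day 1, with 1 normal peripheral array, the differences were -0.31 and -0.15, and on scan day 2 they were -0.65 and -0.57.

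Col4a2 (chr8:11416851-11416910) had ratios of 0.17, 0.40, -0.04, -0.15 and -0.40 in normal central, 0.21, 0.49 and 0.03 in normal peripheral, 0.06, 0.17, 0.18, -0.26 and -0.80 in dissected central and -0.04, -0.26, -0.46, 0.02 and 0.60 in dissected peripheral areas. Its group means followed the order of Col4a1 at the top, with normal peripheral at 0.24 ± 0.24 (n = 3), and the same 2 differences were -0.27 (SE 0.25, adjusted p = 0.803) and -0.25 (SE 0.25, adjusted p = 0.832). Col18a1, whose cleaved end is endostatin, an inhibitor of vessel growth, was the collagen whose central difference after dissection had an unadjusted p under 0.05. Its ratios (chr10:76707663-76707722) were -0.05, -0.55, -0.66, -0.55 and -0.46 in normal central and 0.13, -0.41 and -0.33 in normal peripheral areas. They were 0.52, -0.25, 0.46, 0.50 and -0.59 in dissected central and 0.24, -0.42, 0.06, 0.33 and -0.21 in dissected peripheral areas. Of the 5 dissected central areas 3 stood above every normal central one and 2 within their range. Dissected minus normal was 0.58 (SE 0.22, limma adjusted p = 0.838) in the central area and 0.20 (SE 0.25, adjusted p = 0.874) in the peripheral area, and the test of the difference between areas gave an adjusted p of 0.839. The central value was 1.08 on scan day 1 and 0.25 on scan day 2, and 0.60 from Cy5 alone. A second probe, 245 bases upstream, gave 0.24.

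Among the other type IV chains, Col4a4 and Col4a6 were above background on all 18 arrays and Col4a5 on 12, and Col4a3, which assembles with Col4a4 and Col4a5 in the kidney glomerulus, was above background on 1. Probes of Col4a4 and of Col4a6 disagreed. The tested Col4a4 probe gave 0.60 for dissected minus normal in the peripheral area, and a probe 4365 bases upstream, also above background on all 18 arrays, gave -0.63. For Col4a6 the tested probe gave 0.02 there and -0.10 for central minus peripheral in normal glands. A Col4a6 probe 1442 bases upstream, above background on all 18 arrays, gave -0.48 and -0.54. Class medians rest on the tested probes. The class median over 7 tested genes of 8 was -0.07 for dissected minus normal in the central area, -0.06 in the peripheral area, -0.11 for central minus peripheral in normal and -0.09 in dissected glands, and 0.34 for the difference between areas in the change. For that last difference 5 of 7 genes lay above 0, against 47.8% of all genes, and 0 of 31 collagens had an unadjusted p under 0.05.

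Of the 7 cartilage collagens 4 passed the filter, namely Col2a1, Col9a2, Col11a1 and Col11a2, and Col10a1 of hypertrophic cartilage was above background on 1 array. Markers of chondrocytes were mixed. Matn1, Matn4 and Cnmd were above background on 0 of 18 arrays, Hapln1 on 3, Matn3 on 2, Acan on 16, and Comp and Sox9, which other cells also express, on 18. Over the 8 markers, 2 to 5 were above background on any array. Col2a1, the main collagen of cartilage (chr15:97979257-97979316), had ratios of -0.50, -0.12, -0.34, 0.03 and 0.24 in normal central and 0.56, 0.19 and -0.20 in normal peripheral areas. In dissected glands the 4 usable values were 0.19, -0.04, -0.48 and -0.25 in central and 0.03, -0.03, -0.23 and 0.50 in peripheral areas, array 5 of each group being left out for a non-uniform spot. All groups overlapped, and under the main processing none of the differences exceeded 0.32 in size. Dissected minus normal was -0.01 (95% interval -0.44 to 0.43) in the central and -0.12 (-0.61 to 0.38) in the peripheral area. Central minus peripheral in normal glands was -0.32, but -0.69 from the scanner's own log ratio, -0.63 from the deposited ratios and -0.48 from Cy5 alone. A second probe, 20 bases nearer the 3′ end and above background on all 18 arrays, gave -0.12 there. For dissected minus normal in the peripheral area it gave 0.08.

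Col11a1, a chain of type XI collagen, is named after its values were seen, as the collagen with the widest range, from -3.56 to 1.36. Its ratios were 0.24, -0.50, 0.38, 0.44 and -0.76 in normal central, -1.50, 1.36 and -3.56 in normal peripheral, -1.51, -1.52, 0.53, -0.32 and 0.03 in dissected central and 1.20, -1.47, -1.69, 1.32 and -2.89 in dissected peripheral areas. Peripheral areas held both its 3 highest and its 3 lowest values. The SD within groups was 1.49, and no difference between groups passed an unadjusted p of 0.05. Over the 4 tested cartilage genes the median was 0.11 and 0.12 for dissected minus normal in the central and peripheral area, -0.34 and -0.19 for central minus peripheral in normal and dissected glands, and 0.08 for the difference between areas in the change. The peripheral median of 0.12 was 0.91 on scan day 1 and -0.40 on scan day 2, so its direction turned between days.

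**Figure D5:**
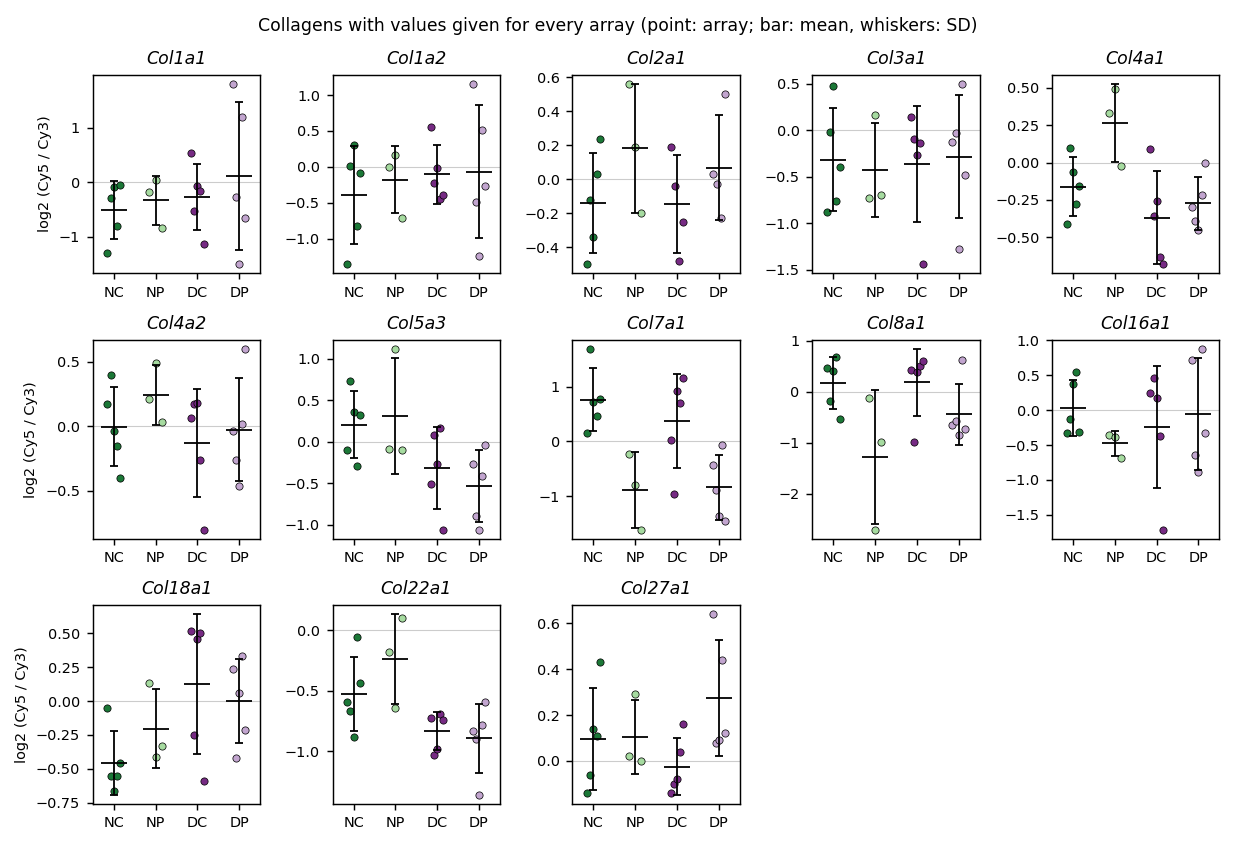
Log2 ratios of 13 collagens in normal central (NC), normal peripheral (NP), dissected central (DC) and dissected peripheral (DP) areas, with 1 point an array, the mean as a bar and the SD as whiskers. Vertical axes differ between panels, and Col7a1 is the panel in which the NC and NP groups lie furthest apart.

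All 5 microfibril and network collagens were tested. Col8a1, a short-chain collagen of vessel walls and of the membrane behind the cornea, was lower in normal peripheral than in normal central areas by an unadjusted p. Its ratios (chr16:57488371-57488430) were 0.46, -0.19, 0.41, 0.68 and -0.54 in normal central and -0.12, -2.70 and -0.99 in normal peripheral areas. They were 0.42, -0.98, 0.39, 0.50 and 0.60 in dissected central and -0.66, -0.58, -0.85, 0.62 and -0.72 in dissected peripheral areas. In each state most central values stood above most peripheral ones, with 1 array of each dissected group on the other side. Central minus peripheral was 1.43 (SE 0.49, limma adjusted p = 0.382) in normal glands and 0.63 (SE 0.43, adjusted p = 0.844) in dissected glands. The test of the difference between both gave -0.81 (SE 0.65, adjusted p = 0.823). A second probe, 2562 bases nearer the 3′ end, gave 0.81 and 0.47. The spot on normal peripheral 2, at -2.70, was not well above background in Cy5, so that ratio and the difference it enters rest partly on a background value. Without that array the value for normal glands was 0.72. Cy5 alone gave 1.24, the scanner's own log ratio gave 2.70, and 2.77 came from the table of the authors. Over the 5 genes the median for central minus peripheral was 0.32 in normal glands, with all 5 above 0, and 0.12 in dissected glands, with 3 above 0. For dissected minus normal it was 0.02 in the central area, with 3 above 0, and 0.27 in the peripheral area, with all 5 above 0. The difference between areas in the change had a median of -0.43, with 0 above 0. These share the 3 normal peripheral arrays, apart from the central change and the dissected comparison. Col6a2 was at 0.74 after dissection in both areas (limma adjusted p = 0.991 and 0.693), and its second probe, above background on 3 arrays, gave 0.02 and 0.08.

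FACIT collagens sit on the surface of fibrils. Col22a1, known from tissue junctions such as those of muscle and tendon, had the smallest unadjusted p of any collagen after dissection. Its ratios (chr15:71881125-71881184) were -0.59, -0.67, -0.88, -0.06 and -0.44 in normal central and -0.18, -0.64 and 0.10 in normal peripheral areas. They were -0.73, -1.03, -0.98, -0.69 and -0.74 in dissected central and -0.83, -0.90, -1.36, -0.78 and -0.59 in dissected peripheral areas. Every dissected value was below -0.58, and 4 of the 8 normal values lay below that too, so the groups overlapped. Dissected minus normal was -0.65 (SE 0.20, limma adjusted p = 0.469) in the peripheral and -0.31 (SE 0.17, adjusted p = 0.998) in the central area. The peripheral value was -1.17 on scan day 1 and -0.36 on scan day 2, and from Cy5 alone -0.74, while the central value was 0.00 from Cy5 alone. A second probe, above background on 5 arrays, gave -0.03 for the peripheral area. Col16a1 was chosen by its normal groups, which did not overlap by a narrow margin. Its ratios (chr4:129543748-129543807) were -0.33, -0.13, 0.38, 0.54 and -0.31 in normal central, -0.36, -0.38 and -0.69 in normal peripheral, 0.24, 0.46, 0.18, -0.37 and -1.71 in dissected central and 0.72, -0.64, -0.89, 0.88 and -0.32 in dissected peripheral areas. The difference of 0.51 (SE 0.45) had an adjusted p of 0.798, and in dissected glands the value was -0.19. The value for normal glands was 1.38 from the scanner's own log ratio, 1.44 from the deposited ratios of the authors, 0.81 from Cy5 alone, 1.15 on scan day 1 and 0.11 on scan day 2. Its spots on normal peripheral 1 and dissected central 5 were not well above background in Cy5. For the 3 transmembrane collagens tested, Col13a1, Col17a1 and Col23a1, differences ran from -0.12 to 0.42 over the 4 pairwise comparisons. Col17a1 and Col23a1 were above background on 4 and 5 arrays, and the highest Col17a1 ratios were 1.45 on normal central 3 and 1.36 on dissected peripheral 4.

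Col7a1 encodes the anchoring fibrils that tie an epithelial basement membrane to the tissue beneath it, and under the main processing it had the largest difference between areas of any collagen. For normal glands that order was not stable. Col8a1 stood higher by the scanner's own log ratio (2.70 against 1.72), by the deposited ratios (2.77 against 1.78) and without the 4 weak arrays (2.01 against 1.96). Leaving out some single normal arrays put Col8a1 first as well. On scan day 1, where Col7a1 was at 2.19, Col11a1 differed more, with its only normal peripheral array of that day at -3.56. The single Col7a1 probe (chr9:108695073-108695132) was above background on all 18 arrays. The ratios were 0.16, 1.69, 0.71, 0.46 and 0.77 in normal central and -0.23, -0.80 and -1.61 in normal peripheral areas. In dissected glands they were 0.03, -0.96, 0.91, 0.70 and 1.16 in central and -0.44, -0.89, -1.37, -0.06 and -1.45 in peripheral areas. All normal central values stood above all normal peripheral ones, and in dissected glands 4 of 5 central values stood above every peripheral one, the exception being dissected central 2 at -0.96. Group means were 0.76 ± 0.57 (n = 5), -0.88 ± 0.69 (n = 3), 0.37 ± 0.85 (n = 5) and -0.84 ± 0.60 (n = 5) in that order. In normal glands central minus peripheral was 1.64 (95% interval 0.67 to 2.60, or 3.11-fold), with a limma adjusted p of 0.22. In dissected glands it was 1.21 (0.37 to 2.05, or 2.31-fold), with an adjusted p of 0.314. The difference between both was -0.43 (95% interval -1.70 to 0.85), and the adjusted p of the F test was 0.108.

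The direction of Col7a1 was the same under all alternatives tried in both states, from 1.27 to 2.19 in normal and from 0.92 to 1.87 in dissected glands. It was 2.19 and 1.38 on scan days 1 and 2 in normal glands, and 1.52 and 1.00 in dissected glands, and Cy5 alone gave 1.36 and 1.17. Without dissected central 2 the dissected difference was 1.54 and passed (limma adjusted p = 0.0438, F test 0.0168). Without the 4 arrays of under 30% detected probes, an alternative chosen after the data were seen, it was 1.87 (adjusted p = 0.0224, F test 0.0102). Leaving out these arrays raised the calls over all genes as well. For central minus peripheral in dissected glands they went from 86 to 173 without dissected central 2 and to 193 without the 4 arrays. C cell markers moved with the area too. The mean of 6 C cell markers lay between 0.84 and 1.76 in normal central and between -2.05 and -1.38 in normal peripheral areas, and between -2.95 and -2.48 in dissected peripheral areas. In dissected central areas it was 0.00, -1.47, 1.32, 1.12 and 1.14, and array 2, the array with the low Col7a1, was again the lowest. Of the 5 C cell markers tested, 4 were called in normal and 5 in dissected glands by limma, all higher in central areas, with Chgb at 3.82 (adjusted p = 0.00827) and 3.81 (adjusted p = 0.000585). Among the 5 fibroblast markers tested, only Thy1, which neurons express as well, was called, at 1.87 (adjusted p = 0.0401) and 1.74 (adjusted p = 0.0121). Means of the thyrocyte list stayed between -0.17 and 0.45 on all arrays. The part of C cells in the Col7a1 values was not tested.

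Genes that act with collagens showed no called difference in any of the 5 contrasts (limma, adjusted p of 0.05). That holds for 22 tested genes of collagen synthesis and processing, 7 collagen receptors, 10 genes of collagen breakdown, 13 basement membrane partners, 19 fibril partners and 16 genes of the TGF-beta pathway, a main inducer of fibrillar collagen. At an unadjusted p under 0.05, dissected minus normal held 1, 0, 2, 1, 0 and 2 genes of these lists in the central area and 1, 1, 0, 0, 1 and 1 in the peripheral area, where 5.24% and 8.35% of all genes passed. These counts are no result about the lists, and each gene named below had the smallest p of its list in at least 1 comparison. Ccn2 (CTGF), a matrix protein induced by TGF-beta, had the largest of these, 1.29 (SE 0.39, adjusted p = 0.692) in the central and 1.30 (SE 0.45, adjusted p = 0.524) in the peripheral area. P4ha2, a subunit of the prolyl hydroxylase that stabilises the collagen helix, was at 0.59 (SE 0.23, adjusted p = 0.869) and 0.64 (SE 0.27, adjusted p = 0.574). Reck, an inhibitor of matrix proteases, was at -0.52 (SE 0.15, adjusted p = 0.692) in the central and 0.20 (SE 0.17, adjusted p = 0.789) in the peripheral area. Itga11, an integrin chain that binds fibrillar collagen, had a central minus peripheral difference of 1.27 (adjusted p = 0.389) in normal glands. List medians for dissected minus normal lay between 0.04 and 0.12 in the central and between -0.10 and 0.08 in the peripheral area, against -0.01 and 0.01 over all genes.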

How the data were processed

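Per the file headers, the deposited array files list spot and background intensity of both channels, log10 ratios and quality flags, made with Agilent Feature Extraction 9.5.1.1; the labels name 8.5.1.1 instead. The authors also deposited a table of linear ratios, whose making is not given in the sources used here. After each probe was centred, log2 values of its columns correlated with the scanner ratios at 0.975 to 1, so direction is settled; the centring the authors used is unknown. Mean intensities were corrected with normexp (offset 50) on all spots and normalized by loess within arrays, controls at weight 0. Non-uniform spots were dropped, saturated spots kept, and spots of a probe averaged. Probes with Cy5 well above background on at least 3 arrays were kept, and the brightest stood for its gene (14663 genes). Genes were named through RefSeq tables (GRCm38.p6) for accessions and symbols where matched. Probe positions are those of the files (mm7), for which no genome was used, so exons and untranslated regions under probes were not determined.

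Group means were fitted over all 18 arrays with limma 3.58.1 (R 4.3.3), with eBayes and Benjamini-Hochberg adjustment, two-sided. The script was tested on simulated data. Values in every array are given for Col1a1, Col1a2, Col3a1, Col4a1, Col4a2 and Col2a1, and for members called, with an unadjusted p under 0.05, or with non-overlapping groups. Members, gene lists, tests and alternatives were chosen with earlier results of these data known. Alternatives covered background correction, normalization, filter, probe choice, blocks, weights, scan day, the authors' table and left-out arrays. Some marker genes are not reported here.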

Additional observations from a re-analysis of the deposited data

Results flagged for a closer look

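Over 48 groups of values of the named collagens and class medians, 4 held an array far from the others by Dixon's criterion at 95%, where chance gives about 1 in 20. Col3a1 in dissected central areas was -1.44 on array 5, against -0.27 to 0.14 on the others. The fibrillar class median in dissected central areas was -0.99, on the same array. Col8a1 in dissected central areas was -0.98 on array 2, against 0.39 to 0.60 on the others. Col8a1 in dissected peripheral areas was 0.62 on array 4, against -0.85 to -0.58 on the others.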

How the results depend on the processing

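Of 35 alternatives to each pairwise comparison and 34 to the others, the count of called collagens stayed at 0 in all but 2, which were leaving out dissected central 2 and leaving out the 4 weak arrays (added after the data were seen). There the count was 1, Col7a1, for central minus peripheral in dissected glands and for the F test, so these counts ranged from 0 to 1 with single arrays left out. Over all genes the calls rose in these settings too. They went from 86 to 173 and 193 for that comparison, and from 155 to 185 and 198 for the F test. Class medians moved by more than the SD between replicates only within scan days. The cartilage median for dissected minus normal in the peripheral area was 0.91 on day 1 and -0.40 on day 2, that for the difference between areas was -0.93 and 0.67, and the basement membrane median for central minus peripheral in dissected glands was 0.18 on day 1. On scan day 2 alone the correlations of Col1a1 with Col1a2, Col1a1 with Col3a1 and Col4a1 with Col4a2 were 0.94, 0.56 and 0.68 and no longer passed, and scan day 1 or a slide could give none. That of Col6a1 with Col6a2 was 0.31 to 0.53 with single arrays left out, past the threshold in 5 of 18 cases. Fewer arrays entered these fits; other causes were not tested. The replicate number shares a slide in most cases, and the main fit took no pairing. Of same-numbered pairs, 1 of 5, 1 of 3, 1 of 3 and 4 of 5 had deviations correlated above 0.1. The last of these is central with peripheral in dissected glands, where 9 of 10 arrays correlated best with their own number. A pairing there is possible and was left out of the main fit. With the replicate block no collagen was called, and Col7a1 was 1.52 and 1.21. Over all genes the central minus peripheral count went from 41 to 4 in normal glands and from 86 to 84 in dissected glands. Faint collagens, such as Col17a1, Col23a1 and Col27a1, are limited by signal over background.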

Other observations

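Probes of 4 further genes carry other names in the files, E330026B02Rik, 1110001D15Rik, Emid2 and C530001D20Rik, but are collagen genes in the current RefSeq table. They were above background in Cy5 on 0, 0, 3 and 0 arrays and are not counted among the 40. Parathyroid hormone (Pth) was well above background in Cy5 on 6 arrays and in the reference channel on all 18, with a Cy3 median of 2193, although no parathyroid is in the label of the reference.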
